A study of Mus musculus with 27 samples.

Results

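Transforming growth factor beta (TGF-beta) ligands and receptors were followed through the mouse optic stalk at embryonic day 14. The 7 genes are the ligands Tgfb1, Tgfb2 and Tgfb3, the receptors Tgfbr1, Tgfbr2 and Tgfbr3, and Tgfb1i1, out of 55487 genes counted. They were taken by name, and the family was chosen by measured values in part, namely the levels of Tgfb2 in dorsal mutants and of Tgfb1i1 in ventral mutants, so values from those libraries for those genes are described without a test. All 7 were found. A test needed over 10 counts in 3 or more of 27 libraries, which 6 of the 7 genes had and Tgfb1 did not. The optic stalk is the tube of neural tissue between the eye cup and the brain, whose cells give rise to astrocytes of the optic nerve head. Laser capture took a dorsal piece, a ventral piece and the region of retinal ganglion cell (RGC) axons from 4 control and 5 Smarcc1-DCT-cKO embryos, which makes 6 groups. In the mutants both Smarcc1 (Baf155) alleles carry loxP sites, Dct-Cre removes the gene in pigmented lineages and stalk cells, and a Z/EG reporter is present. Controls were littermates without Dct-Cre. All were on a C57Bl6/J background. Smarcc1 codes for BAF155, a core subunit around which SWI/SNF (BAF) chromatin remodelling complexes assemble.

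TGF-beta ligands are secreted in a latent form that is held in the matrix by latent TGF-beta binding proteins and freed by integrins or proteases. The free ligand binds TGFBR2, which recruits and phosphorylates TGFBR1, and TGFBR1 in turn phosphorylates SMAD2 and SMAD3, which enter the nucleus with SMAD4. TGFBR3 (betaglycan) presents ligand to TGFBR2, and TGF-beta2 depends on it more than the other ligands do. Tgfb1i1 encodes HIC-5, a paxillin-like focal adhesion protein that was first found as a gene induced by TGF-beta1. It is neither a ligand nor a receptor. TGF-beta2 is known for its part in eye development and is the main TGF-beta of the eye and optic nerve head.

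On the mm10 genome, Tgfb2 (ENSMUSG00000039239.14) lies on the minus strand of chromosome 1 from 186622792 to 186705989. Tgfb1 (ENSMUSG00000002603.15) lies on chromosome 7 from 25687002 to 25705077 and Tgfb3 (ENSMUSG00000021253.7) on chromosome 12 from 86056745 to 86079041. Tgfbr1 (ENSMUSG00000007613.15) lies on chromosome 4 from 47353222 to 47414931, Tgfbr2 (ENSMUSG00000032440.13) on chromosome 9 from 116084293 to 116175360, and Tgfbr3 (ENSMUSG00000029287.14) on chromosome 5 from 107106570 to 107289629. Tgfb1i1 (ENSMUSG00000030782.17) lies on chromosome 7 from 128246812 to 128255699. The strand setting of the counting is not stated, and exonic bases are shared with other annotated genes for 12.4% of Tgfb3, 4.54% of Tgfbr3 and 2.14% of Tgfb2, so reads in those bases cannot be assigned to one gene. The other 4 members share none.

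The sequence just upstream of Tgfb2 is shown because most of the values below concern this ligand. RefSeq on GRCm38.p6 (mm10) gives these 250 bases before the start of the gene at chr1:186705990-186706239, written 5′ to 3′ on the minus strand, with a TATA box (TATAAA) and a palindromic E-box (CACGTG) in capitals.
Tgfb2 upstream: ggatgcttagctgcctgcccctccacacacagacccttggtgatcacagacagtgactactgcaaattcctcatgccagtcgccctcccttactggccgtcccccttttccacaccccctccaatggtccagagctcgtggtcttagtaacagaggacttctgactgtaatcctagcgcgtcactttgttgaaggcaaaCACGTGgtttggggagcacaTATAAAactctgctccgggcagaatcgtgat
The TATA box begins 31 bases and the E-box 51 bases before the start. Searched on both strands, TATAAA was found in 12.4% and CACGTG in 6.02% of 32851 upstream windows of the same length. The letters CAGAC, the short sequence that SMAD proteins are known to bind, occurred 2 times here and at least once in 42.2% of all windows. The GC box GGGCGG (32.7% of windows) and the cAMP response element TGACGTCA (1.55%) were absent from this window. The leading letters of that element, TGACG (17.8%), occurred 1 time, on the opposite strand and 72 bases before the start. The motifs do not overlap one another. No binding or accessibility was measured in these libraries.

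Libraries held between 10.9 and 33.98 M counts (M stands for 1000000), and levels are given as counts per M counts of a library (CPM). In these libraries 3 counts equal 0.0883 to 0.275 CPM, and a gene at 0 can lie at up to that level by counting error alone. The targeted gene Smarcc1 stood below every control library in every ventral and axon mutant library, while in the dorsal region the mutants (2.26 to 107 CPM) overlapped the controls (75.9 to 289 CPM). Batch A held 1 control and 3 mutant embryos and batch B held 3 and 2. Axon libraries carried the axonal and neuronal markers (summed over 9 genes, 2023 to 4124 CPM against 52.1 to 1820 CPM in the stalk libraries). In captured tissue, fewer cells of a type and less RNA per cell cannot be told apart.

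**Figure D1:**
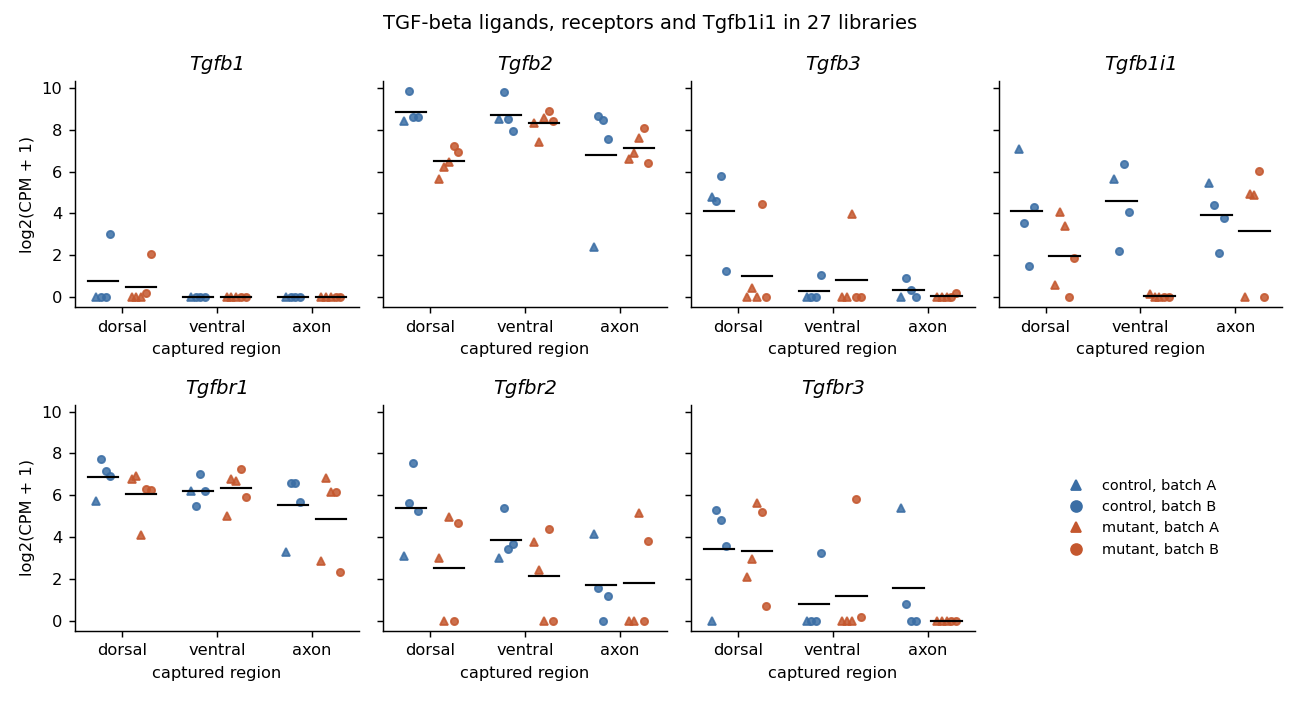
Levels of the 7 genes as log2(CPM + 1) in 27 libraries, by captured region and genotype (n = 4 control and 5 mutant embryos per region). Each point is 1 library, its shape gives the batch and the black line is the group mean; Tgfb2 and Tgfbr1 lie above 0 in all 27 libraries, while Tgfb1 lies above 0 in 3.

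Tgfb2 was the most abundant ligand in all 27 libraries. Per kilobase of exon, the scale on which different genes can be compared, Tgfb2 averaged 49.6 CPM per kb over the 27 libraries, against 1.56 for Tgfb3 and 0.0764 for Tgfb1. It made up between 80.3% and 100% of the summed ligand level per kb, and over 90% in 24 of the 27 libraries. Of the receptors, Tgfbr1 averaged 12.5 CPM per kb, Tgfbr2 2.31 and Tgfbr3 1.56. Tgfb1i1 averaged 3.63 CPM per kb. Tgfb2 was the highest of the 7 genes per kb in 24 libraries. The exceptions were dorsal mutants 1 and 2, where Tgfbr1 was higher, and axon control 1. The median level was 0 for Tgfb1, Tgfb3 and Tgfbr3, which were counted in 3, 11 and 13 libraries. Tgfbr2 was counted in 19 libraries and Tgfb1i1 in 20.

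In the dorsal stalk, Tgfb2 stood at 345, 916, 384 and 391 CPM in controls 1 to 4. In dorsal mutants 1 to 5 it stood at 48.2, 73.5, 87.9, 147 and 120 CPM. The groups did not overlap, and the lowest control was 2.35 times the highest mutant. The means were 509 ± 272 CPM (SD, n = 4) and 95.3 ± 38.8 CPM (SD, n = 5), a ratio of 5.34. Within batch A the single control (345 CPM) lay above the 3 mutants (48.2 to 87.9 CPM), and within batch B the 3 controls (384 to 916 CPM) lay above the 2 mutants (120 to 147 CPM). Because this contrast helped choose the family, no test is given. Among the 16145 genes compared there, 1.61% had every mutant library below every control library. The mean of log2(CPM + 1) was 8.87 in controls and 6.49 in mutants, a difference of -2.38 that ranged from -2.56 to -1.95 when each library was left out, within either batch and under other scalings. That range describes the chosen contrast and is no further support for it.

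Markers of mesenchyme and of astrocyte and stalk progenitors were lower in the dorsal mutants, as Tgfb2 was. The sum over 11 mesenchyme genes, such as the collagens Col1a1 and Col3a1, was 1162 to 11399 CPM in dorsal controls and 55.6 to 395 CPM in dorsal mutants. All 11 had a lower mean in the mutants, and none was at 0 throughout either group. In 7 of them every mutant lay below every control, which held for 1.61% of all genes compared. The sum over 10 progenitor genes, among them Pax2 and Sox9, was 1518 to 2484 CPM in dorsal controls and 536 to 956 CPM in dorsal mutants. Of these 10, 9 had a lower mean in the mutants, 5 of them with every mutant below every control. Pigment cell markers moved the other way, with a sum over 8 genes of 39.5 to 4912 CPM in dorsal controls and 3143 to 12279.7 CPM in dorsal mutants, and all 8 had a higher mean in the mutants. Over all 27 libraries the Pearson r of Tgfb2 was -0.13 with the mesenchyme list and 0.63 with the progenitor list. The part of these 3 lists in the dorsal Tgfb2 difference was not tested. Ventral libraries had a mesenchyme sum of 55.4 to 1351 CPM in controls and 53.9 to 199 CPM in mutants (with Twist1 and Foxc1 at 0 in all 5), and a progenitor sum of 2263 to 2536 CPM in controls and 1523 to 2731 CPM in mutants. All 11 mesenchyme genes had a lower mean in ventral mutants too, 0 of them with every mutant below every control (0.706% of all genes compared).

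**Figure D2:**
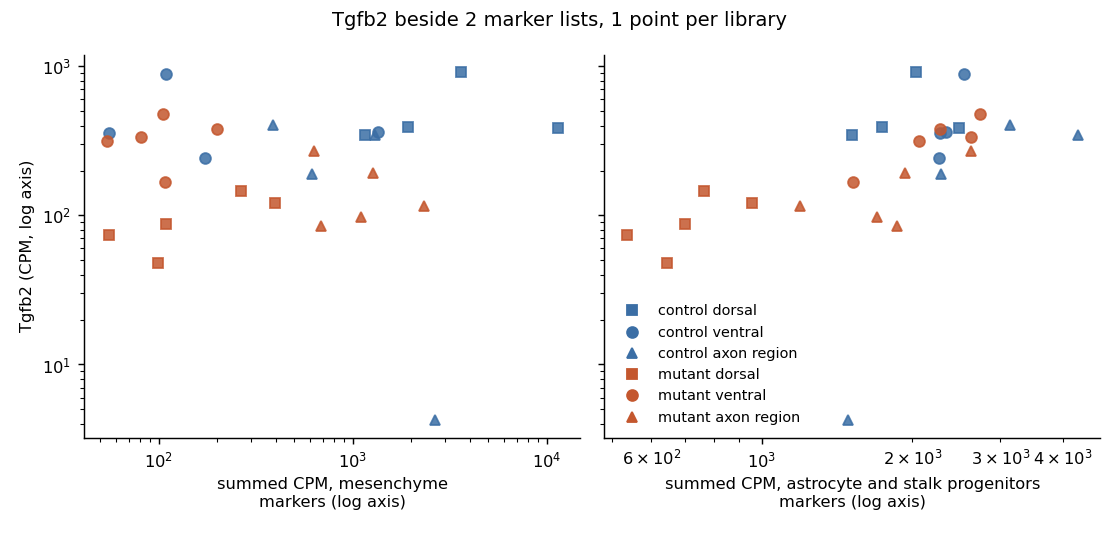
Tgfb2 (CPM, log axis) against the summed CPM of mesenchyme markers (left, log axis) and of astrocyte and stalk progenitor markers (right, log axis), with 1 point per library, colour for genotype and shape for region. The 5 dorsal mutant libraries lie at 48.2 to 147 CPM of Tgfb2 and at progenitor sums of 536 to 956 CPM, below the dorsal controls in both.

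In the ventral stalk Tgfb2 did not differ detectably between genotypes. The controls stood at 360, 891, 365 and 241 CPM and the mutants at 316, 167, 381, 480 and 337 CPM, so the groups overlapped. The means were 464 ± 290 CPM (SD, n = 4) and 336 ± 114 CPM (SD, n = 5). With edgeR's quasi-likelihood test the log2 fold change was -0.32 ± 0.40 (SE), with an adjusted p of 0.999 over all genes. Control 2, the highest, set its sign, and without that library it was 0.081.

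In the axon region the Tgfb2 levels depended on 1 library. The controls stood at 4.23, 407, 347 and 189 CPM and the mutants at 96.8, 116, 193, 269 and 85.2 CPM. Control 1, with 76 counts, had the lowest level of the 27 libraries, and the next lowest was dorsal mutant 1 at 48.2 CPM. The means were 237 ± 180 CPM (SD, n = 4) in controls and 152 ± 77.7 CPM (SD, n = 5) in mutants. Control 1 is also the single batch A control, so the fit with batch as a term gave a log2 fold change of 0.48 ± 1.15 (SE, adjusted p = 0.9995), against the direction of the means. Without that library the value was -0.88, and in batch B alone it was -0.84.

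With the replicate number taken as the embryo, the order of Tgfb2 across regions differed between control and mutant embryos. In controls the dorsal level was higher than the ventral one in 3 of 4 embryos, with dorsal-to-ventral ratios from 0.960 to 1.62. In the mutants it was lower in 5 of 5 embryos, with ratios from 0.152 to 0.439. These ratios rest on the dorsal libraries that helped choose the family and carry no test. The ventral level was above the axon level in all 9 embryos, by 1.05 to 85.03 times in controls and 1.45 to 3.96 times in mutants. With the embryo as a block, the ventral level exceeded that in axons by 1.02 ± 0.31 (log2, SE) in mutants, with an unadjusted p of 0.0114 and an adjusted p of 0.573, and by 1.29 ± 1.05 in controls (adjusted p = 0.907). By mean CPM the 6 groups ranked control dorsal, control ventral, mutant ventral, control axon, mutant axon and mutant dorsal. The first and second means of that order (509 and 464 CPM) lay within 1 SD of each other, and the ranges of every pair of neighbours in the order overlapped.

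**Figure D3:**
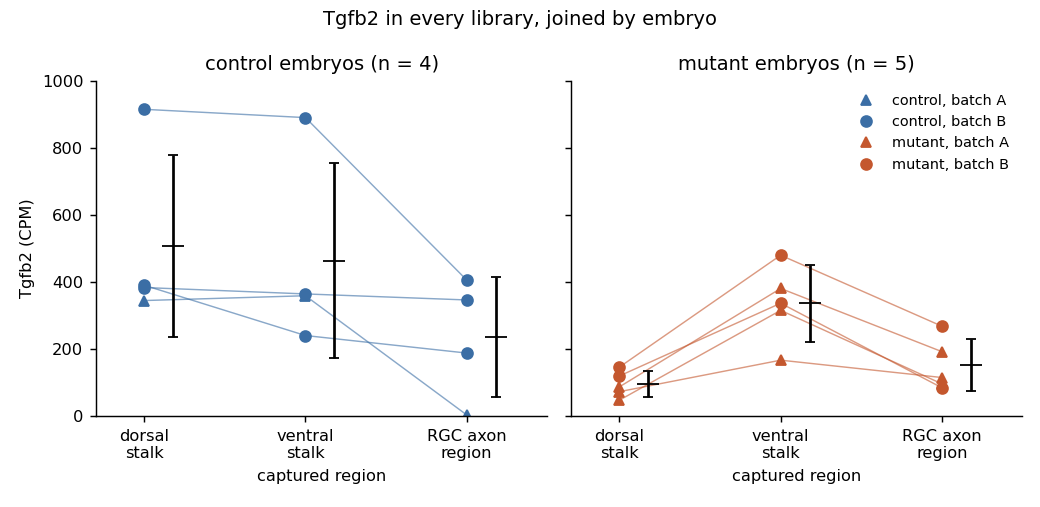
Tgfb2 (CPM) in the 3 captured regions of each embryo, controls on the left (n = 4) and mutants on the right (n = 5). Lines join libraries of 1 embryo, triangles are batch A and circles batch B, and bars give the mean ± SD; in the mutants the dorsal point is the lower of the 2 stalk points in all 5 embryos, and in the controls in 1 of 4.

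The other ligands were rare. Tgfb3, a ligand best known from palate and lung development, was counted in all 4 dorsal controls, at 26.5, 23.3, 53.3 and 1.35 CPM. In the dorsal mutants it stood at 0, 0.358, 0, 20.9 and 0 CPM, so mutant 4 overlapped the controls. The means were 26.1 ± 21.3 CPM (SD, n = 4) and 4.25 ± 9.31 CPM (SD, n = 5), and the adjusted p was 0.964. Outside the dorsal stalk Tgfb3 reached 1 CPM in only 2 of 18 libraries, ventral control 4 at 1.06 CPM and ventral mutant 3 at 14.8 CPM. In controls, edgeR gave an unadjusted p of 0.0494 for dorsal against ventral and 0.0346 for dorsal against axon, and adjusted values of 1.00 and 0.800. DESeq2 called both. The dorsal mesenchyme sums given above were also lower in mutants, and their part in the Tgfb3 values was not tested. Tgfb1, the ligand that platelets and immune cells are rich in, had 105 counts in dorsal control 4 (7.07 CPM), 48 in dorsal mutant 5 (3.19 CPM), 2 in dorsal mutant 4 and 0 in the remaining 24 libraries, which allows up to 0.275 CPM in the shallowest of them.

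The type I receptor Tgfbr1, the signalling kinase, had counts throughout the 27 libraries. In the dorsal stalk it stood at 52.6, 214, 143 and 119 CPM in controls and at 110, 118, 16.1, 78.7 and 75.5 CPM in mutants. These groups overlapped. The means were 132 ± 66.8 CPM (SD, n = 4) and 79.8 ± 40.3 CPM (SD, n = 5), and the log2 fold change was -0.43 ± 0.70 (SE, adjusted p = 1.00). In batch A alone the value was 0.61, since the single control there was at 52.6 CPM. In the ventral stalk the means were 79.1 ± 36.1 CPM in controls (range 43.2 to 129 CPM, n = 4) and 90.7 ± 46.5 CPM in mutants (31.6 to 151 CPM, n = 5), with a log2 fold change of 0.26 ± 0.57 (adjusted p = 0.999). In the axon region the controls stood at 8.74, 93.8, 94.5 and 50.3 CPM and the mutants at 6.12, 111, 69.8, 71.2 and 3.99 CPM. Axon control 1 and mutants 1 and 5 were thus low for this receptor, and the first of them was also low for Tgfb2. None of the 3 genotype differences of Tgfbr1 exceeded the spread between libraries.

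The type II receptor Tgfbr2, which binds ligand first, was unevenly counted. The dorsal controls stood at 7.40, 48.7, 182 and 36.9 CPM and the dorsal mutants at 7.06, 0, 29.8, 0 and 24.3 CPM. The means were 68.9 ± 77.7 CPM (SD, n = 4) and 12.2 ± 13.97 CPM (SD, n = 5), with overlapping ranges and an adjusted p of 1.00. The ventral controls ranged from 6.90 to 40.4 CPM, and the ventral mutants from 0 to 19.9 CPM with 2 of 5 at 0. In the axon region 3 of 4 controls held Tgfbr2 at 1.24 to 16.9 CPM, and 2 of 5 mutants at 13.0 and 34.8 CPM. It was counted in 11 of 12 control libraries and 8 of 15 mutant libraries, a count given as a description. In the ventral and axon comparisons its adjusted p was 0.999 and 0.9995. Within control embryos the dorsal level of Tgfbr2 was above the ventral one in 4 of 4, by 1.07 to 19.0 times, with an adjusted p of 1.00.

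The co-receptor Tgfbr3 was counted mostly in the dorsal stalk. The dorsal controls stood at 0, 38.1, 26.96 and 10.8 CPM and the dorsal mutants at 3.21, 6.80, 48.7, 36.2 and 0.598 CPM. Their means, 19.0 ± 16.9 CPM (SD, n = 4) and 19.1 ± 21.9 CPM (SD, n = 5), lay within the spread, with an adjusted p of 1.00. Only ventral control 4 (8.51 CPM) and ventral mutant 4 (54.9 CPM) held over 3 counts in the ventral stalk, where the adjusted p was 0.999. In the axon region it was at 40.7, 0.709, 0 and 0 CPM in controls and at 0 in all 5 mutants. The unadjusted p for that difference was 0.0261 and the adjusted p 0.880. Controls 3 and 4 were at 0 as well, so the difference rests on control 1. The level in dorsal mutants against axon mutants had an unadjusted p of 0.0296 and an adjusted p of 0.541, and both DESeq2 and limma voom called it.

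Tgfb1i1 lay at or below the counting floor in the ventral mutants. The ventral controls stood at 49.2, 3.58, 81.6 and 15.7 CPM, which are 962, 47, 1428 and 253 counts. The 5 ventral mutants held 2, 0, 0, 0 and 0 counts. The groups did not overlap. The control mean was 37.5 ± 35.1 CPM (SD, n = 4), and the floor of 3 counts per library was 0.161 CPM on average in those mutants, a ratio of 232. That ratio rests on a mean whose libraries spread from 3.58 to 81.6 CPM. The floor covers counting error alone, and Tgfb1i1 ranged from 0 to 64.7 CPM within the axon mutants. This contrast also helped choose the family, and no test is given. Among the 16139 genes compared in the ventral stalk, 0.706% had every mutant library below every control library. The same held in each batch, with a control at 49.2 CPM against 0 to 0.0947 CPM in batch A and controls of 3.58 to 81.6 CPM against 0 in batch B.

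Mural and smooth muscle markers, cells in which HIC-5 is known to be made, were sparse in the ventral stalk. Their sum over 9 genes was 9.15 to 85.7 CPM in ventral controls and 0 to 19.98 CPM in ventral mutants. Myh11, Rgs5, Kcnj8 and Des were at 0 in all ventral mutants, and Pdgfrb, Kcnj8 and Des in all ventral controls. By group mean, 5 of the 9 were lower in ventral mutants and 2 higher. Over all 27 libraries the Pearson r of Tgfb1i1 with this list was 0.10. The part of these markers in the ventral difference was not tested.

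Tgfb1i1 was counted in the other regions of the mutants. In the dorsal stalk the controls stood at 136, 10.7, 1.77 and 18.8 CPM and the mutants at 0.459, 15.5, 9.47, 0 and 2.59 CPM. The groups overlapped, and the log2 fold change was -3.36 ± 1.73 (SE) with an unadjusted p of 0.0765 and an adjusted p of 0.918. In the axon region the controls stood at 42.6, 20.4, 3.22 and 12.7 CPM and the mutants at 0, 29.7, 28.7, 64.7 and 0 CPM. The highest axon level was in a mutant, and the log2 fold change was 0.35 ± 2.31 (adjusted p = 0.9995). Mutant embryos 2, 3 and 4 thus held Tgfb1i1 in axons while their ventral libraries held 0 counts. Whether the ventral effect differs from the axon effect was not tested for this gene, because the ventral libraries chose it. No test is given for the difference between dorsal and axon effects either, since that fit also held the ventral libraries.

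Among the comparisons open to a test, edgeR called 0 members. For the genotype effect this covers 5 members in the dorsal stalk, 5 in the ventral stalk and 6 in the axon region. Over all genes, called genes made up 0.0124%, 0% and 0% of those tested in these comparisons. At an unadjusted p under 0.05 the members numbered 0, 0 and 1 (Tgfbr3 in axons). DESeq2 called 0, 0 and 1, again Tgfbr3 in axons, and limma voom called 0 in each. Over all genes DESeq2 called 532, 342 and 1233 in these comparisons, and limma voom 41, 6 and 45. Between regions of control embryos, 0 of 4 or 5 members were called, where 0% (dorsal against ventral), 0.0126% (dorsal against axon) and 0% (ventral against axon) of all genes were. Tgfb3 was at an unadjusted p under 0.05 in the first and second of these. In mutant embryos it was again 0 of 4 or 5, where 0.0371%, 0.266% and 0.259% of all genes were called, and 0, 1 and 1 members were at an unadjusted p under 0.05. For the difference of the genotype effect between regions 0 members were called, against 0.00612% of all genes for dorsal and ventral, 0.0122% for dorsal and axon and 0% for ventral and axon, and 0 members were at an unadjusted p under 0.05 in each. Each fit of that difference held the libraries of all regions, so Tgfb2 and Tgfb1i1 are not counted in it. These 12 comparisons share libraries and embryos.

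The other genes of the pathway were followed as 6 lists holding 81 genes, 69 of which passed the count filter. In the genotype comparisons edgeR called 0 of 68 in the dorsal stalk, 0 of 68 in the ventral stalk and 0 of 67 in the axon region. DESeq2 called 11, 2 and 5, and limma voom 0 in each. Over all genes DESeq2 called 532 of 16145, 342 of 16139 and 1233 of 14977 in these comparisons. In the dorsal stalk 48 of the 68 had a lower fitted level in mutants and 20 a higher one, with a median log2 fold change of -0.68 against -0.04 over all genes. At an unadjusted p under 0.05, 9 of the 68 were lower and 0 higher, where 2.68% of all genes were lower and 2.68% higher. Dcn, Col1a1, Col1a2, Col3a1 and Postn, which are among those 9, are also mesenchyme markers of the list above, and the part of mesenchyme was not tested. In the ventral stalk 3 were lower and 0 higher (1.91% and 1.28% of all genes), with a median of -0.23 against -0.08. In axons 1 was lower and 3 were higher (2.68% and 0.861% of all genes), with a median of 0.15 against -0.29.

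**Figure D4:**
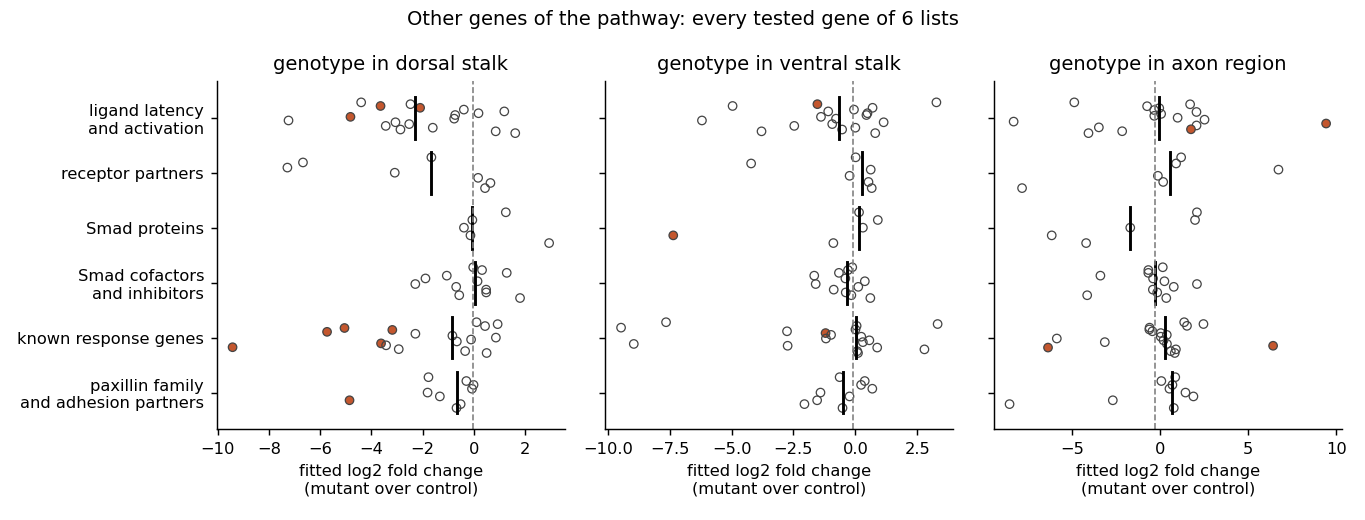
Fitted log2 fold change (mutant over control) of every tested gene of the 6 pathway lists in the dorsal, ventral and axon libraries. Each circle is a gene, filled where the unadjusted p is under 0.05, black bars are list medians and the dashed line is the median over all genes; in the dorsal stalk the list of latency and activation genes has its median at -2.29 and no gene is filled to the right of 0.

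Genes that hold or free latent ligand made up the longest list. In the dorsal stalk 14 of its 18 tested genes had a lower fitted level in mutants, with a median log2 fold change of -2.29. The mesenchyme markers given above were lower in the same libraries (1162 to 11399 CPM in dorsal controls and 55.6 to 395 CPM in dorsal mutants), Dcn belongs to both lists, and their part was not tested. Fbn1 encodes fibrillin-1, the microfibril protein to which latent TGF-beta binding proteins attach. It stood at 251, 182, 207 and 295 CPM in dorsal controls and at 56.0, 20.9, 81.3, 65.1 and 46.3 CPM in dorsal mutants. The groups did not overlap, where 1.61% of all genes compared had every mutant below every control. The log2 fold change was -2.10 ± 0.45 (SE) with an adjusted p of 0.386. Dcn encodes decorin, a small proteoglycan that binds TGF-beta. Its means were 691 ± 664 CPM in dorsal controls (176 to 1647 CPM) and 34.6 ± 19.5 CPM in dorsal mutants (11.9 to 58.6 CPM), with an adjusted p of 0.103. Itgb5, an integrin subunit of the ligand-freeing receptors, ranged from 8.56 to 121 CPM and from 0 to 23.8 CPM, with an adjusted p of 0.918. In the ventral stalk Bmp1, a protease that cleaves matrix and latency proteins, was at 60.8 to 115 CPM in controls and 17.3 to 41.8 CPM in mutants (log2 fold change -1.53 ± 0.59, adjusted p = 0.999).

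Mmp14, a membrane matrix protease that can free latent ligand, was the 1 pathway gene called between regions. In mutant embryos it stood at 21.2, 24.2, 14.6, 27.1 and 21.5 CPM in the dorsal stalk and at 96.4, 425, 297, 202 and 232 CPM in axons, a log2 fold change of -3.58 ± 0.53 (SE, adjusted p = 0.0449). The call was lost under RLE scaling and without any one of the 5 mutants. In controls it stood at 47.8 to 115 CPM in the dorsal stalk and 53.6 to 95.7 CPM in axons. Every dorsal mutant thus lay below every dorsal control, which held for 1.61% of all genes compared there. Every axon mutant lay above every axon control, but the lowest mutant (96.4 CPM) barely passed the highest control (95.7 CPM). No share over all genes is given for that direction. For the genotype effect on Mmp14, edgeR gave -1.60 ± 0.82 (log2, SE) in the dorsal stalk (adjusted p = 0.918) and 1.75 ± 0.56 in axons (adjusted p = 0.880). The difference between these effects was -3.54 ± 0.76 with an adjusted p of 0.236.

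In the dorsal stalk 4 of 7 receptor partners and 3 of 5 SMAD genes had a lower fitted level in mutants, 0 of them at an unadjusted p under 0.05. Acvrl1, a type I receptor known from endothelium, was counted in dorsal libraries only, at 2.05 to 54.1 CPM in controls and 0 to 48.3 CPM in mutants (adjusted p = 1.00). Eng encodes endoglin, an endothelial co-receptor. In axons it reached at most 1.19 CPM in controls and ranged from 0 to 75.9 CPM in mutants, 4 of which held over 3 counts, and the edgeR estimate was 6.71 ± 3.35 (log2, SE; adjusted p = 0.880). The sum over 8 endothelial markers in axons was 3.49 to 164 CPM in controls and 0.0584 to 391 CPM in mutants, all 8 with a higher mean in mutants, and their part in the Eng values was not tested. Smad6, an inhibitory SMAD, was at up to 4.51 CPM in ventral controls and at 0 in all 5 ventral mutants (adjusted p = 0.999). Of 12 tested cofactors and inhibitors 6 lay lower and 6 higher in dorsal mutants, with a median of 0.06. Of the 9 tested paxillin-like and adhesion genes, the partners of Tgfb1i1, 9 lay lower in dorsal mutants with a median of -0.68, and Tln2 (talin-2) had the smallest p (0.0316, adjusted p = 0.918). In the ventral stalk, where Tgfb1i1 was at 0 to 2 counts in mutants, 6 of those 9 lay lower with a median of -0.52, and the smallest unadjusted p was 0.412.

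Genes known to respond to TGF-beta lay lower in dorsal mutants for 12 of 17 tested, with a median of -0.84, and 5 of the 17 were at an unadjusted p under 0.05, all lower. Col1a1 ranged from 29.4 to 938 CPM in dorsal controls and from 0.596 to 10.4 CPM in dorsal mutants (adjusted p = 0.103), and Col3a1 from 421 to 4263 CPM and from 0 to 81.5 CPM (adjusted p = 0.562). Col1a2 ranged from 157 to 1891 CPM and from 4.40 to 71.7 CPM (adjusted p = 0.844). These 3 collagens and Postn are also among the 11 mesenchyme markers, so the response list and the marker list are not separate measurements. Snai2, the other gene of those 5, is not on the marker list. It stood at 44.5, 0, 59.9 and 23.8 CPM in dorsal controls and reached at most 0.183 CPM in dorsal mutants. Control 2 at 0 overlapped the mutants, and edgeR gave an unadjusted p of 0.00571 and an adjusted p of 0.918. Ventral mutant 1 held 41.7 CPM and the highest ventral control 11.4 CPM. In the ventral stalk Col4a1, a basement membrane collagen, ranged from 53.5 to 178 CPM in controls and from 29.7 to 68.2 CPM in mutants (adjusted p = 0.999). In axons Snai2 and Snai1, transcription factors of mesenchymal change, reached at most 6.68 and 1.24 CPM in any axon library.

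The genes whose levels most resembled Tgfb2 over the 27 libraries, among 10497 protein-coding genes with a mean of at least 5 CPM, were Slc5a3 (Pearson r of log2(CPM + 1) 0.84), Maf (0.80) and Sh3pxd2b (0.80). Slc5a3 is a sodium and myo-inositol transporter and Maf a transcription factor of lens and other tissues. Tgfbr1 most resembled Peli1 (0.80), Ppp1r10 (0.79) and Tnks (0.77). The closest to Tgfbr2 were Grk5 (0.76), Flvcr1 (0.75) and Acbd3 (0.72), and to Tgfbr3 Smoc1 (0.71), Wnt5a (0.69) and Sun1 (0.67). For the sparsely counted genes the highest values were 0.71 for Tgfb3 (Efnb1), 0.65 for Tgfb1i1 (Pcx) and 0.63 for Tgfb1 (Tmem132d). Among the 7 genes themselves the highest r was 0.54, between Tgfb2 and Tgfbr1. Libraries that share an embryo, a region and a depth enter these values, so they are descriptions over 27 libraries.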

How the data were processed

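RNA of 27 laser-captured pieces (9 embryos, 3 regions) was amplified by PCR without molecular identifiers, so floors cover counting error alone. Raw read counts, neither scaled nor filtered, were deposited for each gene. The authors ran the Seq2Science pipeline on single-end reads, with STAR as the aligner, mm10 as the genome and HTSeq as the counter. Versions, annotation and strand setting are not given in the sources used here. Tissue of an earlier stage was not analysed here.

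Symbols, positions and exon lengths came from GENCODE M21, which matched 55227 of 55487 identifiers. CPM is the count over the library total, and the pseudocount was 1 CPM. Groups, batches and replicate numbers came from the labels, and the number within a genotype was taken as the embryo. No 2 libraries held identical counts.

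The 16330 genes that had over 10 counts in 3 or more libraries were fitted with edgeR 4.0.16 in R 4.3.3 (quasi-likelihood F-test, two-sided, robust, legacy setting, TMM). Genotypes were compared within a region with batch as a term. Regions and interactions were compared with the embryo as a block. Called genes had a p under 0.05 after Benjamini-Hochberg adjustment over all genes and a log2 fold change beyond 0.58 in size. The fitting code was tested on simulated data. Standard errors derive from the fold change and F statistic. DESeq2 1.42.0, limma voom (limma 3.58.1), RLE scaling, no filter, no batch term, single batches, the block or its absence, and leaving out each embryo were alternatives. In a genotype comparison within a region, leaving out an embryo removes a single library.

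The members, gene lists, markers and tests were chosen with earlier results of these data known. The text names the 7 members, Smarcc1, pathway genes called in a comparison or among the 3 smallest p-values of a list, and per member the 3 genes of highest Pearson r. The deviations of same-numbered control and mutant libraries had correlations of -0.05 to 0.03, and those of same-numbered regions within a genotype -0.02 to 0.11. These ranges overlap, so the check cannot decide which libraries share an embryo. The main genotype fits did not pair numbers across genotypes.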

Additional observations from a re-analysis of the deposited data

Results flagged for a closer look

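Of 37 combinations of a gene and a group with any spread, 14 had a library whose gap to its nearest neighbour, over the range of the group, passed Dixon's limit at 95% (0.829 for 4 libraries and 0.71 for 5). Chance flags about 1 in 20 such groups, and groups whose other libraries are at or near 0 pass easily.

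For Tgfb2, dorsal control 2 stood apart at 916 CPM. For Tgfb1, the counted libraries stood apart, dorsal control 4 at 7.07 CPM and dorsal mutant 5 at 3.19 CPM. For Tgfb3 these were dorsal mutant 4 (20.9 CPM), ventral control 4 (1.06 CPM), ventral mutant 3 (14.8 CPM) and axon mutant 5 (0.133 CPM, which is 3 counts).

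For Tgfbr2, ventral control 2 (40.4 CPM) and axon control 1 (16.9 CPM) stood above their groups. For Tgfbr3 these were ventral control 4 (8.51 CPM), ventral mutant 4 (54.9 CPM) and axon control 1 (40.7 CPM). For Tgfb1i1, dorsal control 1 stood at 136 CPM and ventral mutant 1 at 0.0947 CPM, which is 2 counts. Axon control 1 was the highest of its group for Tgfbr2, Tgfbr3 and Tgfb1i1 and the lowest for Tgfb2 and Tgfbr1. Its mesenchyme sum was 2659 CPM, against 390, 1309 and 614 CPM in axon controls 2 to 4. The part of mesenchyme in these values was not tested.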

How the results depend on the processing

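The members called numbered 0 in all 12 comparisons, and 141 of 150 alternative counts were also 0. DESeq2 called 1 member in 7 comparisons and 2 in another (dorsal against axon in controls, Tgfb3 and Tgfbr3), and limma voom 1 (Tgfbr3, dorsal against axon in mutants). The DESeq2 calls were Tgfbr3 in the genotype effect in axons, Tgfb3 in dorsal against ventral controls, Tgfbr3 in dorsal mutants against ventral and against axon mutants, Tgfbr2 in ventral against axon mutants, and Tgfbr3 in the differences of genotype effect of dorsal and of ventral against axon. DESeq2 called 532, 342 and 1233 genes in all for the genotype effect in dorsal, ventral and axon libraries, against 2, 0 and 0 with edgeR, 41, 6 and 45 with limma voom and 101, 8 and 10 without the count filter. Of the pathway genes, in place of 0, DESeq2 called 11, 2 and 5, the fit without the count filter 9 in the dorsal stalk, and the fit without a batch term 1 (Dcn) there. Without each library in turn the calls of members and of pathway genes ranged from 0 to 0 for every genotype effect.

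The fit with the replicate block in the genotype comparisons called 0 members and 0 pathway genes, and the regional fits without the embryo block called 0 members. The log2 fold change of Tgfb2 in axons turned from 0.48 to -0.74 with limma voom, to -0.63 with no batch term, to -0.84 in batch B alone and to -0.88 without control replicate 1. With each library left out in turn it ranged from -0.88 to 2.32 in axons (the highest without mutant replicate 5), and in the ventral stalk from -0.51 to 0.081, the latter without control replicate 2. The change of Tgfbr1 turned to 0.61 in batch A alone in the dorsal stalk, and in the ventral stalk it ranged from -0.15 (without mutant replicate 4) to 0.56. The cause was not tested. The lower dorsal Tgfb2 ranged over -2.56 to -1.95 and the lower ventral Tgfb1i1 over -5.61 to -3.94 in mean log2(CPM + 1) when a library was left out, within either batch and under 2 other scalings. Both contrasts helped choose the family, so these ranges are descriptions and no further support. Group means of CPM stayed within 1 SD under both other scalings for all 42 combinations. With 4 and 5 libraries per group and many counts of 0, a difference that was not called may still exist.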
